A study of Mus musculus with 13 samples.

Results

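The alcohol and retinol dehydrogenases described here are 9 of the 19934 genes that the array reads with a probe set listed for 1 gene alone. They were chosen by symbol (Adh1, Adh5, Adh6a, Adh6b, Adh7, Rdh1, Rdh10, Dhrs3 and Dhrs9). The choice was made with earlier results of these data known. Shares over all genes stand beside the counts as description, not as a test of the set. Each gene is represented by its probe set with the highest mean, and Adh6b was the 1 gene with a choice between probe sets. Expression was measured with an Affymetrix mouse gene array in 13 samples of squamous epithelium that had been peeled from its underlying tissue after dispase treatment. All animals carried L2-Cre, in which a viral promoter active in foregut squamous epithelium drives Cre, on a mixed background of C57Bl/6 and 129. The control groups were esophagus (3 arrays) and forestomach (3 arrays) of the Cre/p120 +/+ animals 214, 216 and 217. The Cre/p120 flox/flox groups, whose floxed gene encodes the junction protein p120-catenin, were esophagus of animals 193, 307, 313 and 335 (4 arrays) and forestomach masses of animals 412, 426 and 510 (3 arrays). No flox/flox forestomach without a mass was sampled, so genotype and mass cannot be told apart there, and no ages were stated. Values are log2 intensities, and differences are differences of group means on that scale with the standard error (SE) of a limma fit over the 4 groups. Calls rest on a threshold of 0.05 for the p adjusted by the Benjamini-Hochberg method across all 15875 genes tested. The comparisons share control arrays and are not independent of each other. The labels number the animals, so p-values measure the spread between animals within groups, pooled over the 4 groups.

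These enzymes pass alcohols and aldehydes back and forth with NAD(P) cofactors. The Adh proteins are cytosolic zinc enzymes that oxidise ethanol, retinol and other alcohols, and the Rdh and Dhrs proteins are membrane-bound short-chain dehydrogenases that turn retinol into retinal or retinal back into retinol. Retinal is then oxidised by aldehyde dehydrogenases to retinoic acid, which restrains keratinization in squamous epithelia through nuclear receptors, and the upper digestive tract is a known site of Adh7, a class of the family that is efficient with retinol. Adh7, Adh1, Adh6a, Adh6b, the pseudogene Adh6-ps1, Adh4 and Adh5 follow one another in this order on chromosome 3 (RefSeq genes, GRCm38.p6). Rdh1 is followed on chromosome 10 by its close relative Rdh9, and Rdh10, Dhrs9 and Dhrs3 lie on chromosomes 1, 2 and 4.

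The windows of 250 bases before the RefSeq start are shown for 4 genes that were lower in the masses, Adh7, Adh1 and Adh6a from the cluster on chromosome 3 and Rdh1 from chromosome 10. They are on the plus strand of GRCm38.p6, at chr3:138217523-138217772 (Adh7), chr3:138277335-138277584 (Adh1), chr3:138313036-138313285 (Adh6a) and chr10:127759513-127759762 (Rdh1), and a window was found for 7 of the 9 genes. Capitals mark matches on either strand to 4 motifs. These are the letters TATAAA of a core promoter element, the letters CCAAT of another common promoter element, the letters TGANTCA of the AP-1 site, and the letters AGGTCA of the half-site that retinoic acid receptors bind.
Adh7: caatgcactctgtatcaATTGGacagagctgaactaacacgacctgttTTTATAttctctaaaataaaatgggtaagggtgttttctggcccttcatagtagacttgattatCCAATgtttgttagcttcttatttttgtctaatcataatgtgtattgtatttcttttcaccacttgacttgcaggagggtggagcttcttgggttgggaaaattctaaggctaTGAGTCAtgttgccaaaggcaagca
Adh1: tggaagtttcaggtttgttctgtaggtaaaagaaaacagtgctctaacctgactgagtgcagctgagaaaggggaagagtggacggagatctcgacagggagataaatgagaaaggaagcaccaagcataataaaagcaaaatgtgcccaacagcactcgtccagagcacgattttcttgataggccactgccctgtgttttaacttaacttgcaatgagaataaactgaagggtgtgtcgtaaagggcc
Adh6a: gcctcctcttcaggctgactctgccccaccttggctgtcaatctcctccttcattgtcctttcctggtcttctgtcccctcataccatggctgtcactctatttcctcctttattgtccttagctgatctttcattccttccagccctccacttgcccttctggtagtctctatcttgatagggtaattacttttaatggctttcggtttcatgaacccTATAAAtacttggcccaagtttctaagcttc
Rdh1: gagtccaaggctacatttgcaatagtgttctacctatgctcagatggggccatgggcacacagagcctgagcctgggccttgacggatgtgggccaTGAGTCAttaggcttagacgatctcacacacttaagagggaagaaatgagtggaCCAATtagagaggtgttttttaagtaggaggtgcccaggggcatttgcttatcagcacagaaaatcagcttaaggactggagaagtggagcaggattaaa
TGAGTCA was found in Adh7, where it begins 25 bases before the start, and in Rdh1, where it begins 154 bases before it. TATAAA began 31 bases before the start in Adh6a, and the window of Adh1 held none of the 4 motifs. Among all 32536 different windows of this length, 6.73% held TGANTCA, 12.3% TATAAA, 14% AGGTCA and 33.8% CCAAT. None of the 4 windows shown held the receptor half-site. The window of Dhrs9, not shown and not called in the masses, held TGACTCA 18 bases before the start and the half-site. Those of Dhrs3, called lower in the masses, held neither. A match of these letters is a description only.

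Several arrays carried RNA of other cell types. Mass 426 held genes of the glandular stomach, with a list mean of 11.53 over 10 genes against 5.27 to 5.82 on the other 12 arrays, and the highest smooth muscle mean among the masses (11.18, against 8.50 in 412 and 6.70 in 510). On the other 12 arrays the probe sets of these 10 genes read 4.21 to 6.94, which is taken here as the range of background. A difference against values in that range is read as a lower bound, although the floor of each gene's own probe set is not known. In mass 426, Apoa1 stood at 9.93, while Alb was at 3.92. Esophagus control 214 and flox/flox esophagus 307 and 335 held fibroblast genes, with list means of 10.35, 9.001 and 9.49 against 6.53 to 6.69 on the other esophagus arrays, and skeletal muscle genes, at 8.40, 8.08 and 9.82 against 5.64 to 5.92. Basal squamous markers (8 genes, among them Krt5, Krt14 and Trp63) averaged between 9.98 and 11.10 on all 13 arrays, so each array held squamous epithelium. In mass 426 their mean was 10.30, below its means for glandular stomach (11.53) and smooth muscle (11.18). That mass was thus a mixture of tissues. The part of the other cell types in the results was not tested, beyond the fits with the fibroblast mean or without these arrays given below. In such bulk samples, fewer cells of a type and less RNA per cell cannot be told apart.

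**Figure D1:**
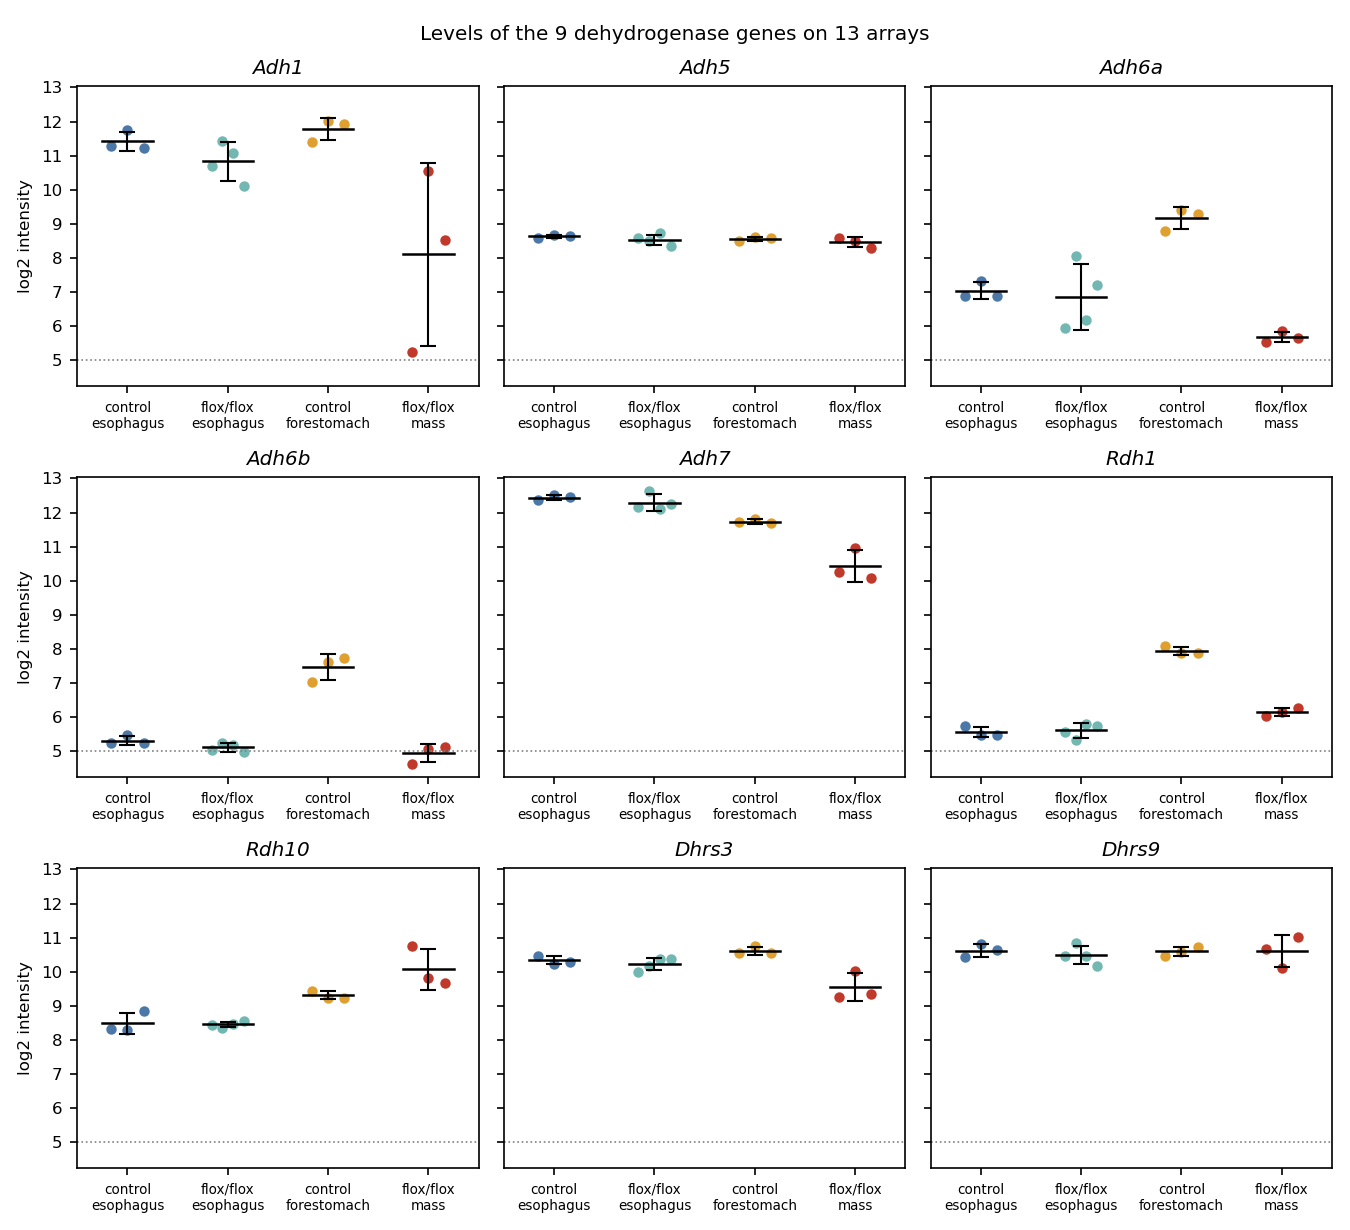
Log2 intensity (y axis) of each of the 9 genes in the 4 groups (x axis); each point is 1 array, the bar is the group mean, the whiskers are 1 SD and the dotted line is the level filter of log2 5. Adh6b and Rdh1 sit near the dotted line in esophagus and above it in control forestomach, and Adh1 in the masses spreads from 5.22 to 10.54.

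In the forestomach masses, 6 of the 9 genes were lower than in control forestomach, namely Adh1, Adh6a, Adh6b, Adh7, Rdh1 and Dhrs3. Of all genes tested, 8.4% were called lower in that comparison and 10.7% in either direction. The median difference of the 9 genes was -1.31, against 0.01 over all genes tested. The groups did not overlap for 7 of the 9 genes, where 27.9% of all genes tested did not overlap. Rdh10 was the gene that did not overlap and was not called, and Adh5 and Dhrs9 overlapped. In the same arrays the mean of 10 suprabasal squamous markers was 10.91 to 11.41 in the masses against 11.73 to 11.92 in controls, that of the fibroblast genes 7.21 to 8.79 against 6.66 to 7.35, and that of the leukocyte genes 7.21 to 7.91 against 6.59 to 6.95. The endothelial genes averaged 6.30 to 7.55 in the masses against 5.28 to 6.09 in controls, and the smooth muscle genes 6.70 to 11.18 against 5.86 to 8.19.

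Adh1, the class I alcohol dehydrogenase that clears ethanol in liver and also oxidises retinol, was read by probe set 10496438. Its level was 11.41, 12.01 and 11.92 in control forestomach 214, 216 and 217, and 5.22, 10.54 and 8.53 in masses 412, 426 and 510. Every mass lay below every control, and the masses ranged over 5.32 log2 units, with 412 in the range of background. Adh1 fell by 3.68 (SE 0.95, n = 3 and 3, 12.8-fold, limma adjusted p = 0.0294). This call rested on the pooled spread: the adjusted p was 0.132 in a fit of the forestomach arrays alone, and the call was also lost without control forestomach 214, 216 or 217 (0.0751, 0.0933 and 0.0900), with the fibroblast mean as a covariate (0.0520) and without esophagus arrays 214, 307 and 335 (0.0572). Without mass 426, which carried the glandular stomach genes, the difference was -4.90, and without mass 412 it was -2.24.

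Adh6a and Adh6b, neighbouring genes of a further Adh class whose physiological substrates are little known, were both lower in every mass than in every control. Adh6a was 8.79, 9.41 and 9.29 in control forestomach 214, 216 and 217 and 5.53, 5.84 and 5.65 in masses 412, 426 and 510. All masses lay below all controls and in the range of background, so the fall of 3.49 (SE 0.43, limma adjusted p = 0.00128) is a lower bound and the closeness of the masses says nothing about Adh6a. The Adh6b level was 7.03, 7.62 and 7.72 in these controls and 4.62, 5.07 and 5.10 in the masses, so the masses sat at the level filter of 5. Its fall was 2.52 (SE 0.18, adjusted p = 6.78e-05), and 2.40 with all values under 5 set to 5, which makes it a lower bound. The other Adh6b probe set, 10496455, stood between 4.31 and 4.81 on all 13 arrays, and with the mean of both probe sets the fall was 1.28 (adjusted p = 0.000615). The deposited values cannot show how far related Adh genes share signal between their probe sets. The pseudogene Adh6-ps1, which lies beside Adh6b, stood between 4.61 and 5.02 on the 13 arrays.

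Adh7, the class of the stomach and esophagus that is most active with retinol, was 11.72, 11.80 and 11.68 in control forestomach 214, 216 and 217 and 10.25, 10.96 and 10.08 in masses 412, 426 and 510. All masses were below all controls, and mass 426 was nearest to them. Adh7 fell by 1.31 (SE 0.20, 2.47-fold, limma adjusted p = 0.00293), and by 1.57 without mass 426. Adh5 encodes the glutathione-dependent formaldehyde dehydrogenase, which also reduces S-nitrosoglutathione and is made in most tissues. It lay at 8.50 to 8.60 in control forestomach and at 8.29 to 8.59 in the masses, with a difference of -0.11 (SE 0.11, 95% confidence interval -0.34 to 0.13, adjusted p = 0.615). Of the genes of the chromosome 3 cluster named here, the 4 called lower were neighbours, while Adh5 at the cluster's other end was not called. Adh4, between them, stood between 3.90 and 4.27 on all arrays and was below the level filter.

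Among the short-chain enzymes, Rdh1, a microsomal enzyme that oxidises retinol, fell by 1.81 in the masses (SE 0.14, limma adjusted p = 7.62e-05). Its level was 8.07, 7.86 and 7.89 in control forestomach 214, 216 and 217 and 6.01, 6.13 and 6.26 in masses 412, 426 and 510. The groups did not overlap, and the masses lay in the range of background, so this fall too may be a lower bound. The same probe set read lower still in esophagus (5.31 to 5.79). Dhrs3, which reduces retinal to retinol and is itself induced by retinoic acid, was 10.53, 10.74 and 10.54 in the controls and 9.26, 10.01 and 9.35 in the masses. It fell by 1.06 (SE 0.18, 2.09-fold, adjusted p = 0.00470), and by 1.30 without mass 426.

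Rdh10, the retinol dehydrogenase that starts retinoic acid synthesis in the embryo, stood on the other side. It was 9.44, 9.23 and 9.24 in control forestomach 214, 216 and 217 and 10.76, 9.80 and 9.66 in masses 412, 426 and 510. All masses were above all controls, with mass 412 highest, but the difference of 0.77 (SE 0.24, 1.71-fold, limma adjusted p = 0.0652) did not pass the test. It passed without mass 510 (0.98, adjusted p = 0.0234), with quantile normalization (0.81, 0.0411) and with the stricter level filter (0.0431). Dhrs9, a retinol and steroid dehydrogenase of epithelia, was 10.47, 10.59 and 10.73 in the controls and 10.67, 10.10 and 11.02 in the masses. Its groups overlapped and its difference was 0.0014 (SE 0.22, 95% confidence interval -0.48 to 0.48, adjusted p = 0.998).

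**Figure D2:**
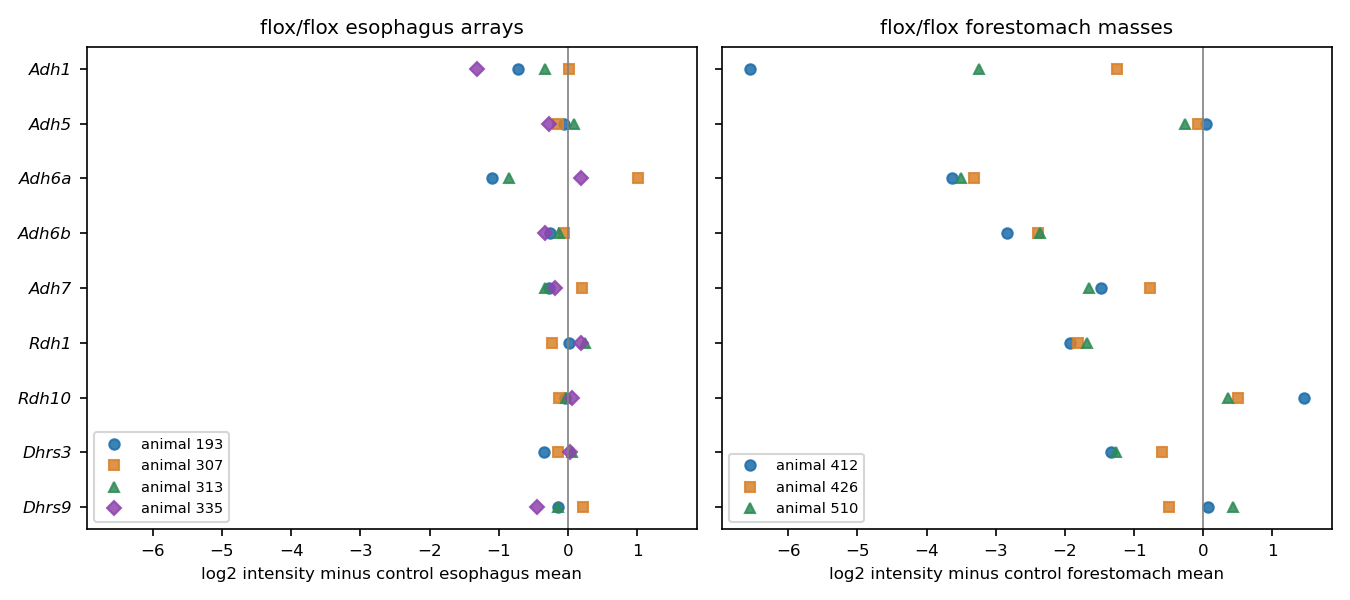
Log2 intensity of each flox/flox array minus the mean of the control arrays of the same tissue (x axis) for the 9 genes (y axis), with 1 symbol per animal. The masses lie far apart for Adh1 (-6.56 to -1.24), where mass 412 is lowest; for Adh6a (-3.64 to -3.32) and Rdh1 (-1.93 to -1.68) all masses are in the range of background.

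The masses differed from each other in a way that was not the same for every gene. Mass 412 was lowest of the 3 for Adh1 and Dhrs3 and highest for Rdh10 and Adh5. Mass 510 was lowest for Adh7 and Adh5. Mass 426 was nearest to the control mean for Adh1, Adh7 and Dhrs3, and lay 1.24, 0.78 and 0.60 below it. For Adh6a, Adh6b and Rdh1 all masses lay in the range of background, where their order is not read. Leaving out any single array of the 13 kept the calls of Adh6a, Adh6b, Adh7, Rdh1 and Dhrs3 in the masses, and that of Adh1 on 10 of 13 occasions. The masses as a group also varied more, with a median SD of 0.248 over genes against 0.115 in control forestomach. With array weights per group, which allow for this, the same count of 6 genes was called.

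In esophagus, flox/flox and control epithelium differed in none of the 9 genes by the limma test, where 0.0126% of all genes tested were called. At an unadjusted p under 0.05 none of the 9 passed either, against 6.98% of all genes tested, and the lowest was 0.272, for Adh6b. The groups overlapped for all 9 genes, where 10.3% of all genes tested did not overlap. The median difference of the 9 was -0.13 against 0.01 over all genes tested. Of the 9, 8 lay below 0, where 7690 of all 15875 genes tested did.

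Control esophagus 214, 216 and 217 gave Adh1 levels of 11.23, 11.28 and 11.74, and flox/flox esophagus 193, 307, 313 and 335 gave 10.69, 11.43, 11.09 and 10.10, so the groups overlapped. Its difference of -0.59 (SE 0.89, n = 3 and 4) had a 95% confidence interval of -2.52 to 1.35 and limma adjusted p = 0.995. The SD of Adh1 was 0.28 in control esophagus, 0.57 in flox/flox esophagus and 2.68 in the masses. The pooled SE and interval therefore do not show the spread of the esophagus arrays alone. For Adh6a the same controls read 6.88, 6.89 and 7.31, and flox/flox 193, 307, 313 and 335 read 5.93, 8.04, 6.18 and 7.21. Controls 6.88 and 6.89 and flox/flox 5.93 and 6.18 lay in the range of background, which limits what this comparison can show. The flox/flox arrays lay on both sides of the controls, 2 below and 1 above all of them; the highest, 307, was among the arrays with fibroblast and muscle genes. The difference was -0.19 (SE 0.41, adjusted p = 0.997), and it was 0.12 without flox/flox 193 and 0.03 without flox/flox 313. Without flox/flox 307 it was -0.59, and it was not called in any of these fits. For Adh7 the controls read 12.44, 12.37 and 12.50, against 12.16, 12.64, 12.11 and 12.25 in the flox/flox animals, with a difference of -0.15 (SE 0.19, 95% confidence interval -0.56 to 0.26, adjusted p = 0.987).

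Rdh10 in esophagus lay between 8.30 and 8.84 in controls and between 8.35 and 8.54 in flox/flox animals, Dhrs3 between 10.24 and 10.46 and between 9.99 and 10.38, Dhrs9 between 10.42 and 10.81 and between 10.17 and 10.84, and Adh5 between 8.58 and 8.65 and between 8.36 and 8.71. For each of these the groups shared a range, and the differences were -0.03, -0.10, -0.13 and -0.09. Adh6b and Rdh1 were near background on all 7 esophagus arrays. Adh6b lay at 5.22 to 5.45 in controls and 4.96 to 5.24 in flox/flox animals, and Rdh1 at 5.46 to 5.72 and 5.31 to 5.79. All these values lie in the range given above. A fall of either gene in esophagus could thus not be measured at that level. A rise to the levels of control forestomach would have been read. There the same probe sets stood at 7.03 to 7.72 for Adh6b and 7.86 to 8.07 for Rdh1. No such rise was seen in flox/flox esophagus, where the differences were -0.20 (SE 0.17) for Adh6b and 0.05 (SE 0.13) for Rdh1. A small rise below the floor of a probe set would stay hidden.

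**Figure D3:**
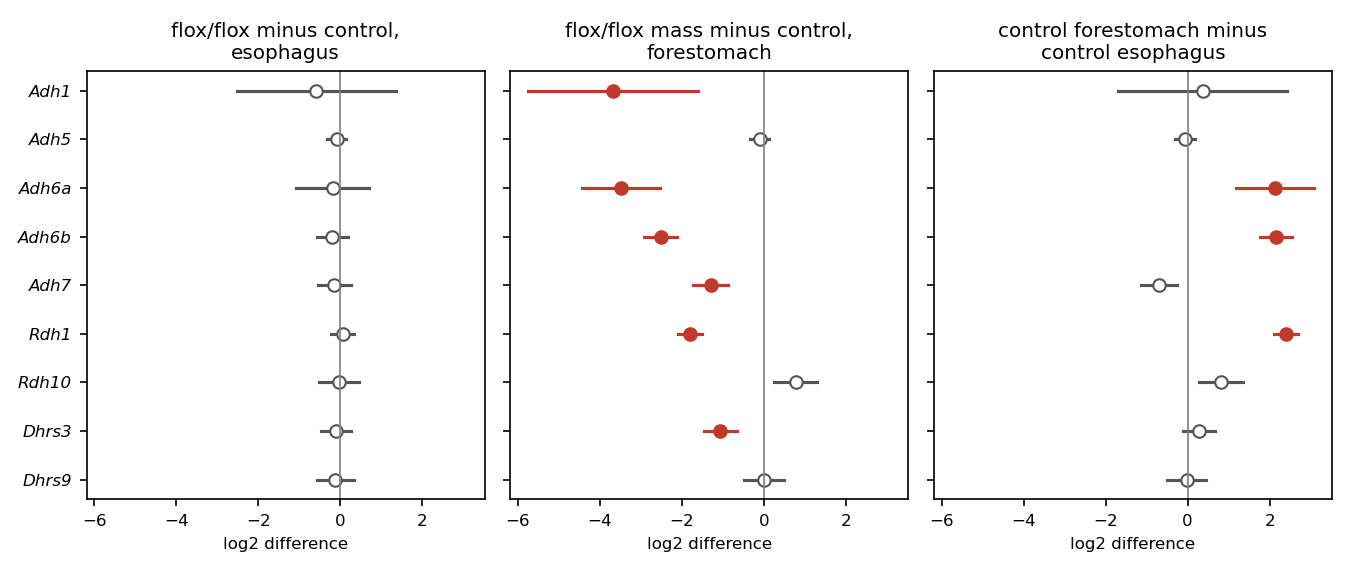
Log2 difference (x axis) of the 9 genes (y axis) in 3 comparisons, with 95% confidence intervals from the limma fit; filled red points passed the test at an adjusted p under 0.05. In esophagus no gene passed, in the masses 6 passed and all lay below 0, and in control forestomach against control esophagus 3 passed and all lay above 0.

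The change in the masses against control forestomach and the change in flox/flox against control esophagus were compared directly as a difference of differences. It passed the test for 2 of the 9 genes, Adh6b (-2.33, SE 0.25, limma adjusted p = 0.00284) and Rdh1 (-1.86, SE 0.19, adjusted p = 0.00284), where 0.0567% of all genes tested were called lower, 0.0819% higher and 0.139% in either direction. Both were near background in esophagus, and in the masses as well, so a fall of the size seen in the masses could not have been measured there. Adh6a had a difference of -3.30 (SE 0.59, adjusted p = 0.0570), which passed with the animal as a replicate block (0.0216). Its mean in control esophagus was 7.03, and the same probe set read 5.53 to 5.84 in the masses, in the range of background. A fall of the size seen in the masses may thus not have been measurable in esophagus for Adh6a either. When single arrays were left out, Adh6a passed on 4 of 13 occasions. Adh7 had -1.16 (SE 0.28, adjusted p = 0.127), Dhrs3 -0.96 (SE 0.25, 0.164) and Adh1 -3.10 (SE 1.30, 0.434). Without mass 426 the count was 5, with Adh6a (-3.38, adjusted p = 0.0419), Adh7 (-1.42, 0.00814) and Dhrs3 (-1.20, 0.0120) added. In that fit 139 of all 15875 genes tested were called, against 22 in the main fit. Adh6b missed the threshold without esophagus arrays 214, 307 and 335 (-2.29, adjusted p = 0.0763), a fit in which 2 of the 9 genes were called.

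Control forestomach and control esophagus, taken from the same 3 animals, differed in 3 of the 9 genes, all higher in forestomach, where 3.51% of all genes tested were called higher, 3.16% lower and 6.67% in either direction, and 21.6% had an unadjusted p under 0.05. Rdh1 was higher by 2.40 (SE 0.14, limma adjusted p = 1.62e-06), Adh6b by 2.16 (SE 0.18, adjusted p = 3.88e-05) and Adh6a by 2.13 (SE 0.43, adjusted p = 0.0116). Control esophagus lay in the range of background for Rdh1 and Adh6b, so their differences are read as lower bounds. For Adh6a 2 of 3 control esophagus arrays lay there, but the same probe set read lower in the masses (5.53 to 5.84). Whether the Adh6a difference is a lower bound is thus not known. Within animals 214, 216 and 217 the difference was 2.62, 2.14 and 2.43 for Rdh1, 1.80, 2.40 and 2.27 for Adh6b, and 1.90, 2.52 and 1.98 for Adh6a. All 3 genes were thus higher in the forestomach of each animal. The call of Adh6a was lost without control forestomach 216 (adjusted p = 0.0586).

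Adh7 went the other way between the control tissues, with 12.37 to 12.50 in esophagus and 11.68 to 11.80 in forestomach. It was lower in the forestomach of animals 214, 216 and 217 (-0.72, -0.57 and -0.83), and the difference of -0.71 (SE 0.20, limma adjusted p = 0.0593) missed the threshold. With the animal as a replicate block it passed (adjusted p = 0.0106). Rdh10 was higher in forestomach by 0.60, 0.92 and 0.94 within these animals, with a difference of 0.82 (SE 0.24, adjusted p = 0.0688), and it too passed with the replicate block (0.0117). Dhrs3 differed by 0.27 (SE 0.18, adjusted p = 0.420), Adh1 by 0.37 (SE 0.95, 0.860), Adh5 by -0.06 (SE 0.11, 0.770) and Dhrs9 by -0.02 (SE 0.22, 0.967). The pooled SE of Adh1 includes the spread of the masses (SD 2.68). Within animals 214, 216 and 217 its difference was 0.18, 0.74 and 0.18. The control groups did not overlap for 6 of the 9 genes, where 37.3% of all genes tested did not overlap.

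The order of the 4 groups differed between genes. Adh6a and Adh6b were highest in control forestomach, followed by control esophagus, flox/flox esophagus and masses; for Adh6a the esophagus groups overlapped, and for Adh6b these 3 groups overlapped with their neighbours in the order. Below control forestomach the values of Adh6b, and most of those of Adh6a, lay in the range of background, where their order is not read either. Rdh1 was highest in control forestomach, and the other groups all lay in the range of background. Its masses (6.01 to 6.26) read above every esophagus array (5.31 to 5.79) with the same probe set. The floor of that probe set is thus not above the esophagus values, and how far the masses stood over it is not known. Rdh10 was highest in the masses, then in control forestomach, then in the esophagus groups, which overlapped. Adh7 was highest in the esophagus groups, which overlapped, then in control forestomach and lowest in the masses. For Adh1, Adh5 and Dhrs9 each group overlapped its neighbour in the order. For Dhrs3 control forestomach lay above control esophagus (10.24 to 10.46), and the later neighbours overlapped.

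For the members whose SD over the 13 arrays was above 1, genes with the most similar profile were listed by the root mean square difference of profiles, each centred on its mean. The profile of Adh1 was nearest to that of Sptssb (0.43 log2 units), then Ada, adenosine deaminase (0.59), and Serpinb7 (0.65), where the median over 15044 genes was 1.79. Adh6a was nearest to Decr1, a mitochondrial enzyme of fatty acid breakdown (0.58), Adh6b (0.62) and Adtrp (0.70), with a median of 1.33. Adh6b was nearest to AAdacl4fm3 (0.29), Hsd17b14 (0.31) and Cyp2b19, a cytochrome P450 of keratinocytes (0.35), with a median of 1.03. Rdh1 was nearest to Faah, fatty acid amide hydrolase (0.24), its neighbour Rdh9 (0.25) and Mmd (0.30), with a median of 0.98. These are descriptions over 13 arrays that fall into 4 groups.

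The wider pathway was followed in 69 further genes, of which 56 were tested. They too were chosen with earlier results of these data known, so their counts are a description. In the masses 12 of the 56 were called lower and 0 higher by limma, with a median of -0.20, where 8.4% of all genes tested were called lower and 2.31% higher. Between genotypes in esophagus 0 of the 56 were called, and 9 of them (16.1%) had an unadjusted p under 0.05, 7 of these lower, where 0.0126% of all genes tested were called and 6.98% had an unadjusted p under 0.05. Other retinol and retinal dehydrogenases and reductases were lower in 6 of 20 tested, aldehyde oxidation in 4 of 14, retinoic acid breakdown in 1 of 4, receptors and their partners in 1 of 8, and retinol binding, uptake and storage in 0 of 10.

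Among the other dehydrogenases and reductases, Rdh9 fell by 1.73 (SE 0.25, limma adjusted p = 0.00229), from 7.74 to 8.11 in control forestomach to 5.82 to 6.34 in the masses, which is in the range of background. Rdh9 and Rdh1 are near relatives, and how far their probe sets share signal was not tested. The carbonyl reductase Cbr2 fell by 1.58 (SE 0.32, adjusted p = 0.00975), the retinal reductase Rdh12 by 0.80 (SE 0.16, adjusted p = 0.0108) and Dhrs7 by 0.75 (SE 0.16, adjusted p = 0.0124). Among enzymes of aldehyde oxidation, which take the products of the Adh and Rdh step further, Aldh3a1 fell by 3.35 (SE 0.65, adjusted p = 0.00823), Aldh3a2 by 1.44 (SE 0.32, 0.0153), Aldh2, the mitochondrial acetaldehyde dehydrogenase, by 1.14 (SE 0.31, 0.0357) and Aldh9a1 by 0.83 (SE 0.14, 0.00426). Mass 426 stood at 10.67 for Aldh3a1 against 7.65 and 7.82 in 412 and 510, and at 9.32 for Aldh3a2 against 7.63 and 7.89. The retinoic acid hydroxylase Cyp26b1 fell by 0.87 (SE 0.25, adjusted p = 0.0481) and the retinoic acid receptor Rarg by 0.47 (SE 0.12, 0.0319).

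**Figure D4:**
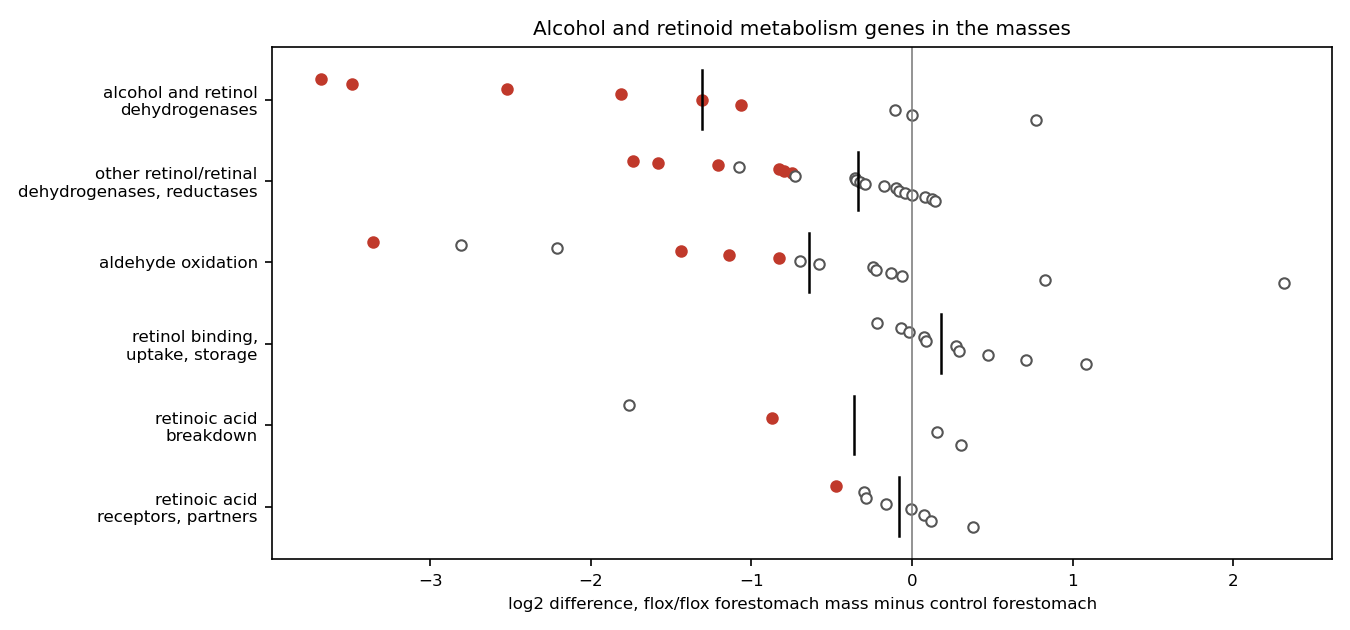
Log2 difference of each tested gene between flox/flox forestomach masses and control forestomach (x axis), by step of alcohol and retinoid metabolism (y axis); filled red points passed the limma test and black bars are medians. The called genes all lie below 0, and the median is -1.31 for the alcohol and retinol dehydrogenases and 0.18 for retinol binding, uptake and storage.

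Between the control tissues, 4 of the 56 further genes were called (3 higher and 1 lower), a share near the 6.67% of all genes tested. Rdh9 was higher in forestomach by 2.36 (SE 0.25, limma adjusted p = 0.000207), a lower bound since control esophagus was in the range of background, and Aldh3a2 was higher by 1.56 (SE 0.32, adjusted p = 0.0121) and Dhrs7 by 0.65 (SE 0.16, 0.0288). The receptor gene Rarb, a known target of retinoic acid, was lower in forestomach (-1.02, SE 0.24, adjusted p = 0.0279), with 6.35 to 6.54 in control esophagus and 5.35 to 5.50 in control forestomach, all in the range of background.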

How the data were processed

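Expression was measured on 13 arrays, 1 per sample, and groups were taken from the sample labels. The deposited values are linear intensity values per probe set, for which the submitters' processing notes name GCRMA; its version is not given in any source used here, and scanner files were not used here. The table held 34729 probe sets, 21633 of them with 1 gene in the platform annotation, 1306 with several and 11790 with none. No value lay under 1, and the log2 of each deposited value was taken. Genes were tested where the probe set with the highest mean exceeded log2 5 on 3 or more arrays (15875 of 19934 genes; all 9 dehydrogenases). The number of arrays limits the precision.

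Group means were fitted with limma 3.58.1 (lmFit and eBayes) in R 4.3.3, in 1 fit of all arrays with 9 residual degrees of freedom, without a block, and the script was tested on simulated data. Deviations from group means correlated at 0.401, 0.398 and 0.315 between the tissues of control animals 214, 216 and 217, which are paired by animal; the replicate block was an alternative. Further genes named in the Results include called members of 5 pathway lists, at most 4 per list and comparison by the smallest adjusted p. The 3 most similar genes per variable member and the cluster neighbours Adh4 and Adh6-ps1 are named too. Genes under Other observations were chosen after their values were seen and were not limited to called genes. The members and lists were chosen with earlier results of these data known. Promoter windows are RefSeq, GRCm38.p6.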

Additional observations from a re-analysis of the deposited data

Results flagged for a closer look

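The difference between the change in the masses and the change in flox/flox esophagus passed the limma test for Adh6b (-2.33) and Rdh1 (-1.86). In esophagus both were near background in controls and flox/flox animals alike, at 4.96 to 5.45 for Adh6b and 5.31 to 5.79 for Rdh1. In the group of 4 flox/flox esophagus arrays no array stood apart from the rest for any of the 9 genes by Dixon's criterion, and the groups of 3 were not tested.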

How the results depend on the processing

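The count of called genes among the 9 was 0 in esophagus under all alternatives run and 5 to 7 in the masses, where it was 6. For the difference of the changes it was 2 to 3, and 2 to 5 when single arrays were left out (5 without mass 426). For control forestomach against control esophagus it was 3, and 5 with the stricter filter, with only the control arrays, with array weights per group and with the replicate block, 4 with quantile normalization, with median centring and with the fibroblast covariate, and 2 to 5 when single arrays were left out (2 without control forestomach 216, 5 without mass 510). The replicate block changed no other call than those of Adh6a, Adh7 and Rdh10 given above.

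Values that changed sign were small and not called, and the cause was not tested. Without esophagus arrays 214, 307 and 335, an alternative chosen after seeing the data, the esophagus difference was 0.024 for Adh5 and 0.145 for Rdh10. When single arrays were left out, esophagus differences ranged from -0.13 to 0.14 for Rdh10, -0.59 to 0.12 for Adh6a and -0.010 to 0.15 for Rdh1. Dhrs9 in the masses was -0.0089 with median centring and -0.21 to 0.25 without single arrays. The difference of the changes of Adh5 was 0.035 with quantile normalization, 0.014 with the fibroblast mean as a covariate and -0.081 to 0.070 without single arrays, and that of Dhrs9 -0.083 to 0.38. Dhrs9 between control tissues was 0.020 with quantile normalization and -0.12 to 0.075 without single arrays.

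Over all genes, the count called in the masses was 1700, against 452 with only the forestomach arrays, 885 with array weights and 753 to 2232 without single arrays. Between control tissues it was 1059, against 2273 with only the control arrays, 2865 with array weights, 2670 with the replicate block, 479 without the 3 esophagus arrays and 543 to 1565 without single arrays. For the difference of the changes it was 22, against 101 with the stricter filter, 49 with quantile normalization, 145 with the replicate block, 5 without the 3 esophagus arrays and 10 to 372 without single arrays (372 without mass 510). Of the genes called in the masses 366 were higher and 1334 lower, and with quantile normalization 515 and 1104; between control tissues 558 were higher and 501 lower, and with median centring 460 and 552.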

Other observations

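Several genes of the steps around the dehydrogenases stood apart in mass 412; the genes named here were chosen after their values were seen. Aldh1a3, which makes retinoic acid from retinal, stood at 11.03 in mass 412, 7.12 in 426 and 7.44 in 510, and at 5.89 to 6.48 in control forestomach (2.32, SE 0.76, limma adjusted p = 0.0742). Stra6, the receptor that takes up retinol, was 8.88 in mass 412, 6.52 in 426 and 6.77 in 510, and 5.98 to 6.55 in control forestomach. All values of Stra6 other than that of mass 412, and the control values of Aldh1a3, lay in the range of background. Rdh10 was also highest in mass 412, at 10.76, where Adh1 was lowest, at 5.22. Aldh1a1, another enzyme that oxidises retinal, was 6.98 in mass 412, 10.23 in 426 and 9.20 in 510, against 11.46 to 11.72 in control forestomach. In esophagus Aldh1a1 was 9.74 to 10.13 in controls and 5.59, 8.38, 8.15 and 9.04 in flox/flox 193, 307, 313 and 335, so the groups did not overlap (-2.17, SE 0.79, limma adjusted p = 0.600), whereas those of Adh1 did. The value of flox/flox 193 lay in the range of background, and 10.3% of all genes tested did not overlap in this comparison. The groups of Aldh1a7 did not overlap there either (-2.63, SE 0.69, limma adjusted p = 0.452), and its value in flox/flox 335 (6.65) lay in the range of background. Other genes of the pathway lists did not overlap there in either direction, such as Rarb and Rarg below the controls and Rxra and Rbp2 above them.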
